A study of Danio rerio with 14 samples.

Results

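F1 zebrafish embryos of parents exposed to gamma radiation at 53 mGy/h were compared with embryos of unexposed parents in the brood bred 1 month after the exposure. All parents were AB wild type fish, and the exposed ones had been irradiated during gametogenesis. The embryos were collected 5.5 hours after fertilization (hpf). Each sample pooled 100 embryos. The comparison used 5 of the 14 libraries of the series, with 3 at 53 mGy/h and 2 in the control, where 1 sample was lost during RNA extraction. The labels do not say which parents or clutch a library came from, so the authors' adjusted p-values measure the spread between these samples, which may be technical. The authors' deposited table listed 13714 genes, all of which are counted here, with 1 value per group in RPM (read counts scaled to library size). No value or spread for single libraries could therefore be given, and no test beyond the authors' own was possible. A gene was called higher or lower when the deposited false discovery rate (FDR) was under 0.05. Its log2 change was the log2 RPM at 53 mGy/h minus the log2 RPM in the control.

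At this age zebrafish embryos run on transcripts loaded into the egg by the mother and on transcripts of their own newly activated genome. Maternal mRNAs are cleared in part through deadenylation, microRNAs and codon content, while zygotic transcription sets up the germ layers as gastrulation begins. In bulk RNA a lower value can come from fewer cells of a type or from less RNA per cell, and these cannot be told apart.

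The embryos of both groups differed in markers of their stage. Of 21 markers of the 5.5 hpf embryo, mostly of germ ring and ectoderm, 19 were lower and 1 (foxi1) was higher, with a median log2 change of -2.07. The list also held the yolk syncytial layer gene mxtx2 and the keratin genes krt4, krt5 and cyt1, all of them lower. The summed level of all 21 markers was 354 RPM at 53 mGy/h and 1703 RPM in the control. The lowest marker was the homeobox gene eve1 at 0.11 RPM at 53 mGy/h, the level of 3 reads at the depth given below, and 2.69 RPM in the control. Of 10 listed markers of adult gonad and sperm, cyp17a1 was higher and none was lower. No blood gene was among these 10. Of 2 listed markers of later tissues, the leukocyte gene lcp1 was lower. The part that stage or cell composition plays in the changes below was not tested. Depth recovered from the lowest values was at least 27.3 megareads (geometric mean over libraries) at 53 mGy/h and 27.7 megareads in the control, at which 3 reads equal 0.11 RPM in either group.

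Genes that rose and genes that fell were nearly equal in number and unlike in level. At 53 mGy/h 3036 genes (22.1%) were called higher and 2942 (21.5%) lower, and 7736 were not called. The genes called higher had a median of 20.5 RPM at 53 mGy/h and 8.54 RPM in the control, and those called lower had a median of 4.64 RPM at 53 mGy/h and 12.5 RPM in the control. Together the genes called higher took 10.9% of all reads at 53 mGy/h and 5.13% in the control. The genes called lower took 10.2% at 53 mGy/h and 17.0% in the control. Measured from a log2 change of 0, 924 genes fell at least 4-fold and 735 fell by less than 1.5-fold. On the same measure 400 rose at least 4-fold and 146 rose by less than 1.5-fold. The counts under 1.5-fold depend on where the calls are centred, which was not at 0, as given below. Of 1511 genes that reached 1 RPM in 1 group only, 775 were called lower and 259 higher. These genes are picked by a difference between the groups, so many calls among them are built in. Of 12187 genes at 1 RPM or more in both groups, 2775 were called higher and 2163 lower. With a mean of at least 10 RPM the size pattern differed, with 880 rises and 373 falls of at least 2-fold. The median log2 change of all genes was 0.12, and the authors' calls were not placed evenly around 0. Among 2366 genes with a mean of at least 50 RPM, 356 were called higher and 549 lower, the smallest called rise was 0.42 and the smallest called fall -0.15 on the log2 scale. For most lists of abundant genes the calls that also lay at least 1.5-fold from the median change are given as well. Over all genes these were 2633 rises (19.2%) and 2401 falls (17.5%), a count added after the values were seen.

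**Figure D1:**
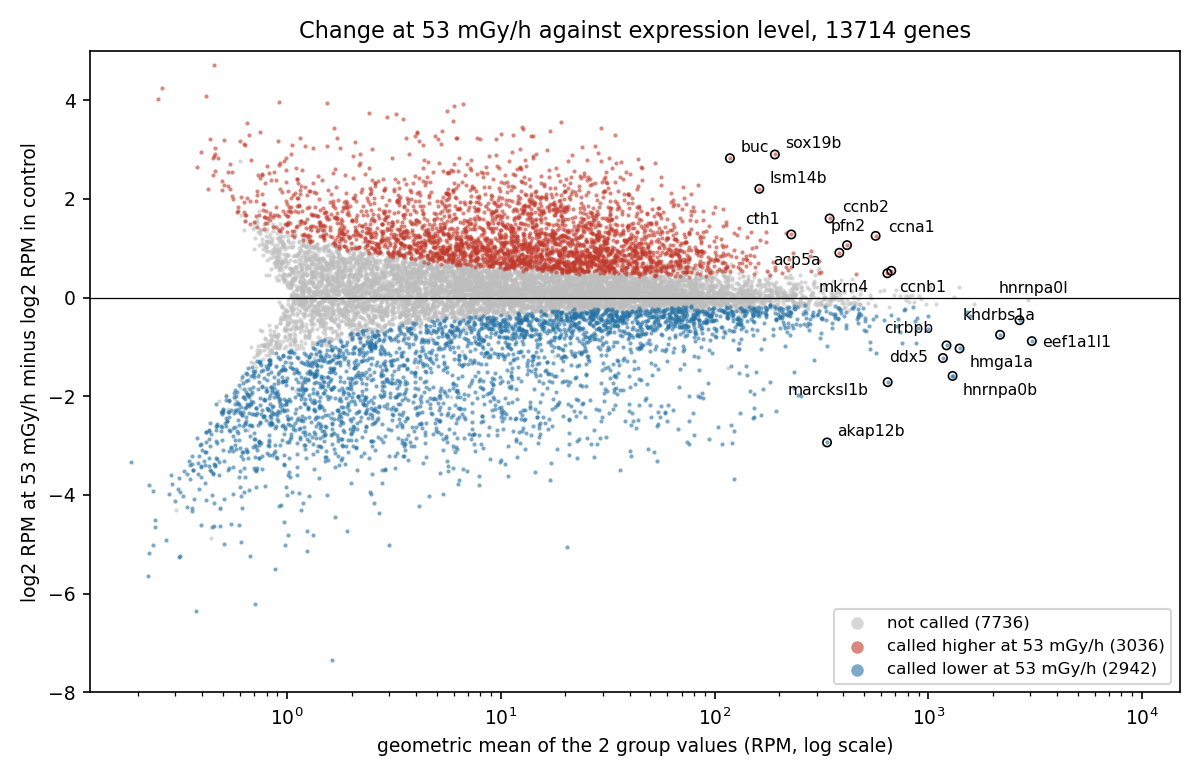
Each point is a gene, with the geometric mean RPM of both groups on the x axis (log scale) and the log2 change, 53 mGy/h minus control, on the y axis. Genes called higher, lower or neither by the deposited FDR are coloured, and among abundant genes smaller falls than rises carry a call.

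The 10 genes that lost most reads included several for RNA-binding, translation and chromatin proteins. The translation elongation factor gene eef1a1l1 had 2245 RPM at 53 mGy/h and 4139 RPM in the control, and khdrbs1a, which encodes an RNA-binding protein of the Sam68 family, had 1667 RPM at 53 mGy/h and 2812 RPM in the control. The RNA helicase gene ddx5 had 765 RPM at 53 mGy/h and 1789 RPM in the control, and the cold-inducible RNA-binding gene cirbpb had 869 RPM at 53 mGy/h and 1701 RPM in the control. The hnRNP gene hnrnpa0b (chromosome 14, 38505360 to 38507852, GRCz10) had 748 RPM at 53 mGy/h and 2250.1 RPM in the control. It overlaps si:ch211-195b11.4, with 746 RPM at 53 mGy/h and 2245 RPM in the control, and the 2 entries share reads. Outside RNA biology, akap12b, which encodes an anchor for protein kinase A, fell by 2.94 on the log2 scale, with 121 RPM at 53 mGy/h and 928 RPM in the control. Its GRCz10 locus is chromosome 20, 26509747 to 26568217, and the authors' deposited table gives it an FDR of 1.4e-45. The membrane-associated actin regulator gene marcksl1b had 356 RPM at 53 mGy/h and 1168 RPM in the control.

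Among the 10 genes that gained most reads were 3 cyclin genes. The cyclin gene ccna1 had 873 RPM at 53 mGy/h and 367 RPM in the control, ccnb2 had 601 RPM at 53 mGy/h and 198 RPM in the control, and ccnb1 had 809 RPM at 53 mGy/h and 555 RPM in the control. The gene buc, whose product organises the Balbiani body of the oocyte in zebrafish, had 314 RPM at 53 mGy/h and 44.3 RPM in the control (chromosome 2, 28199466 to 28203585, GRCz10). The translational repressor gene lsm14b had 347 RPM at 53 mGy/h and 75.4 RPM in the control, and the CCCH zinc finger gene cth1 had 356 RPM at 53 mGy/h and 147 RPM in the control. The SoxB1 gene sox19b, supplied by the mother in zebrafish, made the largest relative gain of the 10 genes that added most reads, with 522 RPM at 53 mGy/h and 70.1 RPM in the control. The profilin gene pfn2, the acid phosphatase gene acp5a and the makorin gene mkrn4 completed these 10.

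The share of rises and falls varied with the length of the locus. In the quintile of genes with the longest loci (over 50.4 kb) 29.2% were called higher and 10.6% lower, and in the quintile with the shortest (up to 6.96 kb) 13.5% were called higher and 34.4% lower. The median log2 change was 0.32 in the longest quintile and -0.11 in the shortest. The intermediate quintiles lay between these values in order. The ordering was also present without chromosome 4, with 30.2% of genes called higher and 8.24% lower in the longest quintile and 14.1% and 32.6% in the shortest. Within each of the 5 expression quintiles, the longest genes were called higher more often and lower less often than the shortest. Among the most abundant genes 23.9% of the longest were called higher and 7.21% lower, against 11.9% and 41.8% of the shortest. RPM are not divided by length, so at the same abundance a longer transcript carries more reads. The length used here is that of the locus from start to end, and transcript length was not examined.

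**Figure D2:**
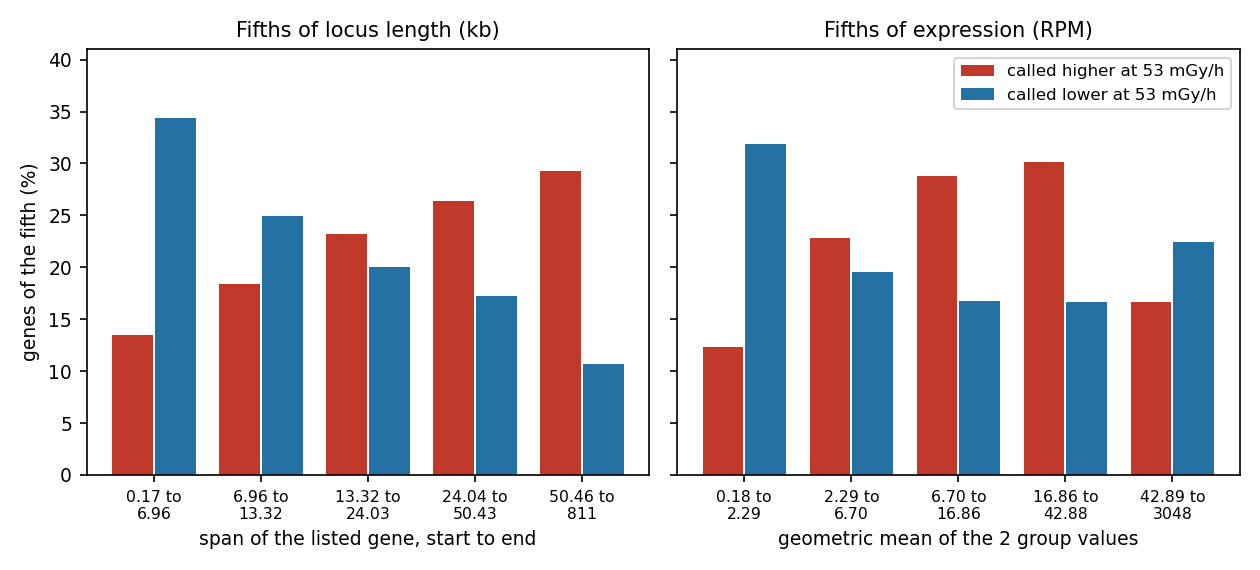
Percent of genes called higher and lower at 53 mGy/h, by quintiles of locus length (kb) and by quintiles of the geometric mean RPM of both groups. The share called higher is 13.5% in the shortest and 29.2% in the longest quintile, and the share called lower is 34.4% in the shortest and 10.6% in the longest.

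Chromosome 4 stood apart among the numbered chromosomes, and so did genes known only by clone names there. Of its 736 listed genes 10.3% were called higher and 56.9% lower, with a median log2 change of -1.16. The other 24 numbered chromosomes ranged from 13.1 to 25.9% lower. Of 13 listed genes encoded in mitochondrial DNA 7 (53.8%) were lower and none was higher, with a median of -0.22. Of 399 genes with clone-derived names on chromosome 4, 19 rose and 334 (83.7%) fell, with a median of -2.40. The other 337 genes of chromosome 4 had 57 rises and 85 falls (25.2%) with a median of -0.01, and 1733 clone-named genes elsewhere had 302 rises (17.4%) and 492 falls (28.4%) with a median of 0.01. Examples were BX248128.1, with 0.13 RPM at 53 mGy/h and 5.87 RPM in the control, and CABZ01015530.1, with 0.59 RPM at 53 mGy/h and 12.1 RPM in the control, for which the files give no function. In all, 321 clone-named genes rose and 826 fell, but among those with a mean of at least 10 RPM rises outnumbered falls by 3. The long arm of zebrafish chromosome 4 is known for its many repeated gene copies, and near-identical copies can share or lose reads in counting.

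Sorting genes into 87 functional lists gave 54 with more rises than falls, 31 with more falls than rises and 2 with equal numbers. Some genes are in several lists, such as dnm1l in those of mitochondrial shape and endosomal sorting, so the lists are not independent. The share of genes that fell was highest in the histone (64.2%), splicing (45.2%) and ribosome biogenesis (43.3%) lists, and rises outnumbered falls in many lists of signalling, membrane traffic and ubiquitin adaptors. Subgroups within lists, and members named from them beyond the largest changes, were chosen after their values were seen. The counts are read against 22.1% higher, 21.5% lower and a median of 0.12 over all genes. These shares include the 2132 clone-named genes, of which 15.1% rose and 38.7% fell. Over the remaining genes the share of rises is therefore higher, and that of falls lower, than the shares used here.

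**Figure D3:**
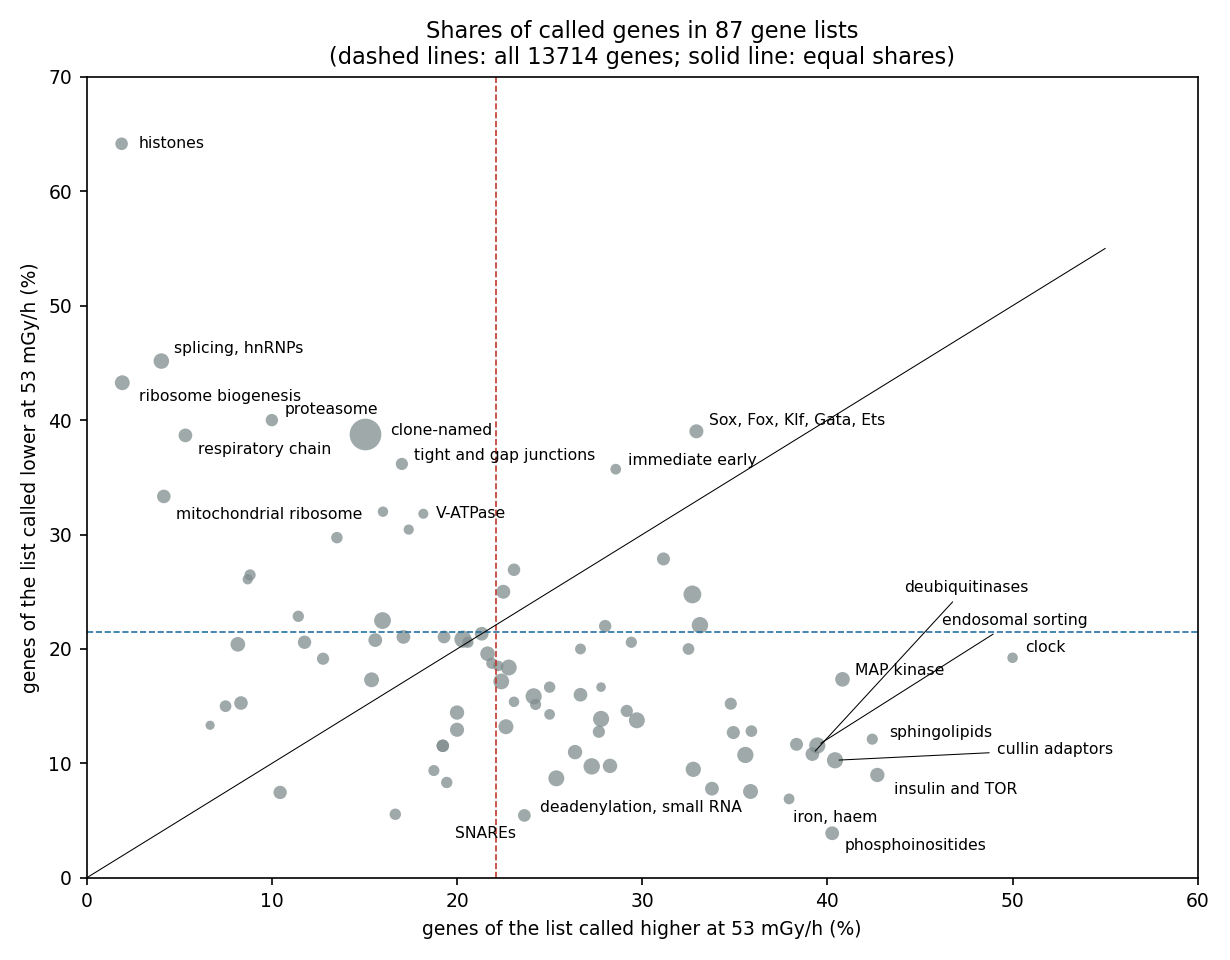
Each point is a gene list, with the percent of its genes called higher at 53 mGy/h on the x axis and the percent called lower on the y axis. Dashed lines mark the shares over all genes, 22.1% higher and 21.5% lower, and the histone, splicing and ribosome biogenesis lists lie at the upper left.

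Genes that package DNA had many falls and a single rise. Of 53 histone and nucleosome genes 34 fell and 1 rose, with a median of -0.75, and 31 of the falls lay at least 1.5-fold from the median change. Their summed level was 6593 RPM at 53 mGy/h and 9699 RPM in the control. Among 27 core and linker histone genes 21 fell and none rose. The linker histone gene histh1l had 7.01 RPM at 53 mGy/h and 42.6 RPM in the control, and h2afx, which encodes the variant phosphorylated at DNA breaks, had 9.34 RPM at 53 mGy/h and 30.2 RPM in the control. The abundant replacement histone gene h3f3a had 547 RPM at 53 mGy/h and 1029.8 RPM in the control, whereas h2afva did not pass the test, at 287 RPM at 53 mGy/h and 277 RPM in the control. Many replication histone mRNAs lack a poly(A) tail and the libraries were poly(A)-selected, and near-identical copies such as those of histone H4 cannot be counted apart with certainty. Of 9 high mobility group genes, whose products bend or loosen chromatin, 7 fell, among them hmgb3a (8.49 RPM at 53 mGy/h and 45 RPM in the control) and hmga1a (978 RPM at 53 mGy/h and 2000.4 RPM in the control). Of 17 histone chaperone genes 6 fell, including anp32a with 86.8 RPM at 53 mGy/h and 227 RPM in the control and the histone carrier nasp with 152 RPM at 53 mGy/h and 302 RPM in the control. The chaperone gene nap1l4b was the only member of the list that rose, with 36.1 RPM at 53 mGy/h and 13.3 RPM in the control.

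Enzymes that modify or move nucleosomes were mixed. Of 106 histone lysine methyltransferase and demethylase genes 24 rose and 14 fell, with the demethylase gene kdm4ab at 135 RPM at 53 mGy/h and 20.4 RPM in the control, and kdm6a, which removes a repressive mark, at 12.5 RPM at 53 mGy/h and 29.3 RPM in the control. Of 90 histone acetylation genes 18 rose and 13 fell, and the acetyltransferase gene crebbpa had 86.1 RPM at 53 mGy/h and 16.3 RPM in the control. Of 80 chromatin remodeller genes 18 rose and 20 fell, and with the 1.5-fold limit 17 rose and 13 fell. The remodeller gene chd9 had 1.47 RPM at 53 mGy/h and 7.54 RPM in the control. Of 37 cohesin, condensin and topoisomerase genes 5 rose and 11 fell, and with the limit 5 rose and 3 fell. The topoisomerase gene top2a, which untangles replicated DNA, had 18.5 RPM at 53 mGy/h and 65.3 RPM in the control, while SMC6, of the complex that acts in recombination repair, had 49.4 RPM at 53 mGy/h and 10.8 RPM in the control.

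Splicing genes had many more falls than rises, often by small amounts. Of 124 splicing factor and hnRNP genes 56 fell and 5 rose, with a median of -0.17. With the 1.5-fold limit 24 fell and 4 rose, where 17.5% of all genes fell and 19.2% rose. Under this limit the share of splicing genes that fell was close to that over all genes, and only their share of rises was low. Of 30 hnRNP genes, whose products coat nascent transcripts, 20 fell and 1 rose, and their sum was 9766 RPM at 53 mGy/h and 14016 RPM in the control. Among them hnrnpa0l had 2277 RPM at 53 mGy/h and 3129 RPM in the control, and ptbp1a, a splicing repressor gene, had 19.4 RPM at 53 mGy/h and 58.7 RPM in the control. Of 18 genes for SR proteins, which promote exon inclusion, 8 fell and none rose, with srsf5a at 127 RPM at 53 mGy/h and 508 RPM in the control. Of 12 genes for snRNP proteins 4 fell and none rose, including snrpd2 with 6.81 RPM at 53 mGy/h and 21.1 RPM in the control. The epithelial splicing regulator genes differed in direction: esrp1 had 6.62 RPM at 53 mGy/h and 41.96 RPM in the control, while esrp2 had 108 RPM at 53 mGy/h and 70.6 RPM in the control. Muscleblind and CELF genes, which also regulate alternative splicing and mRNA decay, had 3 rises and no fall among 7, with celf3a at 11.9 RPM at 53 mGy/h and 1.76 RPM in the control and mbnl1 at 17.2 RPM at 53 mGy/h and 7.29 RPM in the control.

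Genes that build ribosomes leaned the same way. Of 104 ribosome biogenesis genes 45 fell and 2 rose (median -0.19), and 27 falls and 2 rises lay beyond the 1.5-fold limit. The pre-rRNA processing gene rrp15 had 5.86 RPM at 53 mGy/h and 28.5 RPM in the control, and the rRNA dimethylase gene dimt1l had 3.14 RPM at 53 mGy/h and 11.2 RPM in the control. The snoRNP gene nop56 had 273 RPM at 53 mGy/h and 371 RPM in the control, a called fall under 1.5-fold. The helicase gene ddx31 and the GTPase gene gnl1 were the rises, with gnl1 at 29.4 RPM at 53 mGy/h and 17.5 RPM in the control. Of 5 genes for RNA polymerase I subunits 3 fell, with polr1b at 13.1 RPM at 53 mGy/h and 29.7 RPM in the control. Of 98 translation factor genes 20 fell (20.4%) and 8 rose (8.16%), and with the limit 13 fell and 5 rose. Their share of falls was close to the 21.5% over all genes, and only their share of rises was low. The initiation helicase gene eif4a2 had 4.39 RPM at 53 mGy/h and 17.0 RPM in the control, while eif4ebp2, whose product blocks cap-dependent initiation, had 132 RPM at 53 mGy/h and 37.7 RPM in the control. Of 36 aminoacyl-tRNA synthetase genes 6 rose and 2 fell. In the RNA polymerase, Mediator and general transcription factor list 27 of 169 genes rose and 38 fell, and with the limit 22 rose and 26 fell. Its largest named fall was polr3gla, for an RNA polymerase III subunit, with 21.8 RPM at 53 mGy/h and 132 RPM in the control, and its largest named rise was gtf2h1, for a TFIIH subunit, with 51.2 RPM at 53 mGy/h and 12.1 RPM in the control.

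**Figure D4:**
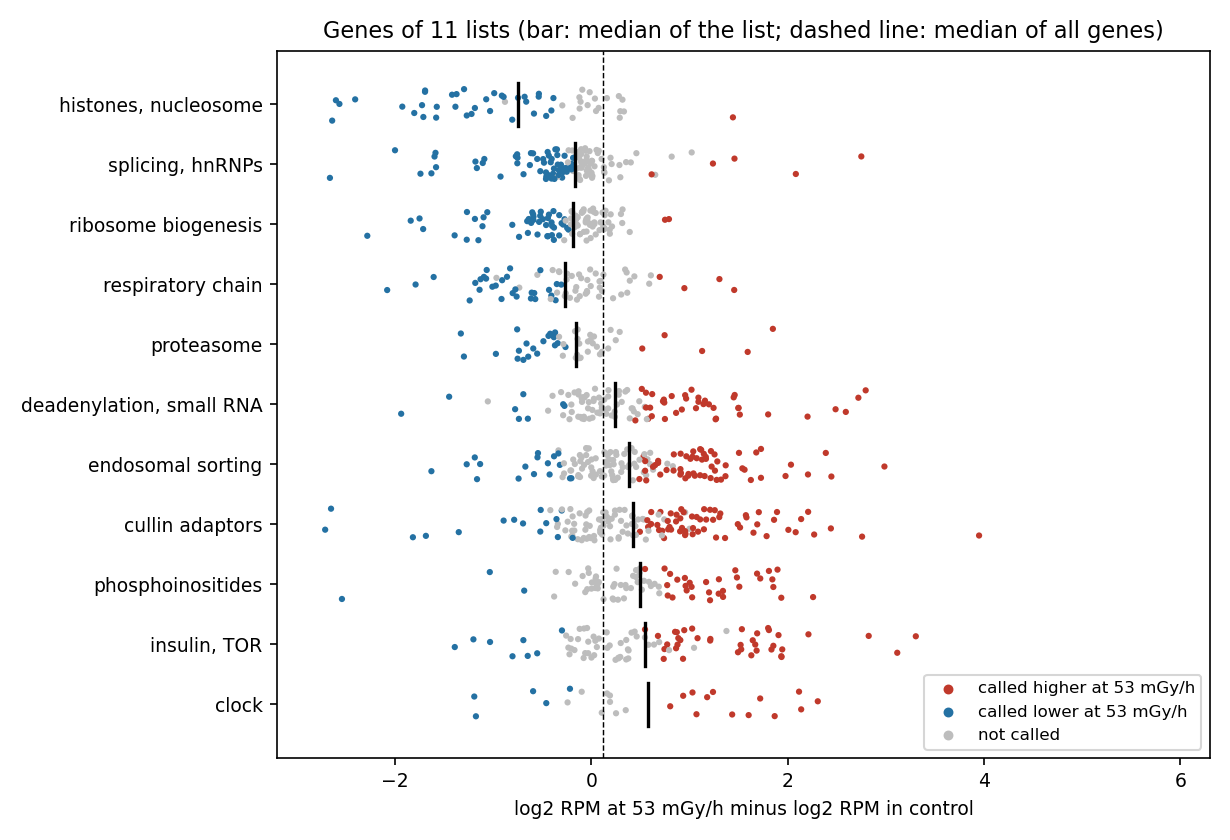
Log2 change of each listed member, 53 mGy/h minus control, in selected lists, with calls by the deposited FDR coloured and the list median marked. Histone, splicing and ribosome biogenesis members lie mostly below the median of all genes (0.12), and phosphoinositide, insulin and TOR, and clock members mostly above it.

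Nuclear genes of the respiratory chain and the mitochondrial ribosome had more falls than rises. A pooled list of mitochondrial import and shape genes had more rises than falls. Of 75 respiratory chain genes 29 fell and 4 rose (median -0.27) with a summed level of 2134 RPM at 53 mGy/h and 1906 RPM in the control, so the count and the sum went opposite ways. With the 1.5-fold limit 24 fell and 3 rose. Of 35 complex I genes 13 fell, of 13 complex IV genes 7 fell and of 18 ATP synthase genes 7 fell and 3 rose. The complex III gene uqcrq had 1.50 RPM at 53 mGy/h and 5.18 RPM in the control, and the complex IV gene cox7c had 10.4 RPM at 53 mGy/h and 20.99 RPM in the control. Among the rises the ATP synthase beta subunit gene atp5b had 391 RPM at 53 mGy/h and 203 RPM in the control. Of 72 mitochondrial ribosomal protein genes 24 fell and 3 rose, and 19 fell and 2 rose with the limit, with mrpl54 at 1.95 RPM at 53 mGy/h and 6.53 RPM in the control.

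Of 47 mitochondrial import and shape genes 13 rose (27.7%, against 22.1% over all genes) and 6 fell (12.8%). Import genes were not counted apart from shape genes. The inner membrane fusion gene opa1 (chromosome 6, 36741995 to 36817287, GRCz10) had 37.6 RPM at 53 mGy/h and 5.32 RPM in the control, and the fission gene dnm1l had 84.3 RPM at 53 mGy/h and 15.5 RPM in the control, so genes of opposite action rose together. The outer membrane fusion gene mfn2 had 36.3 RPM at 53 mGy/h and 20.4 RPM in the control, and the protease gene afg3l2 had 24.9 RPM at 53 mGy/h and 5.29 RPM in the control. The import genes timm10 and timm17a fell, with timm17a at 21.5 RPM at 53 mGy/h and 30.8 RPM in the control. Among 40 mitochondrial carrier genes 13 rose and 8 fell. The glutamate carrier gene slc25a22 had 17.7 RPM at 53 mGy/h and 154 RPM in the control, and slc25a25b, an ATP-magnesium carrier gene, had 30.54 RPM at 53 mGy/h and 5.04 RPM in the control.

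Proteasome genes had more falls than rises. Of 50 proteasome genes 20 fell and 5 rose (median -0.15), and 12 falls and 4 rises lay beyond the 1.5-fold limit. In the 20S core 8 of 16 genes fell and none rose, with psmb6 at 4.78 RPM at 53 mGy/h and 11.8 RPM in the control, although its locus overlaps other genes. In the 19S cap 10 of 23 fell and 3 rose, with the ATPase gene psmc6 at 16.6 RPM at 53 mGy/h and 27.9 RPM in the control and the assembly chaperone gene psmd5 at 7.35 RPM at 53 mGy/h and 2.04 RPM in the control.

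Genes that choose substrates for ubiquitin had more rises than falls. Of 146 cullin, F-box, SOCS-box and Kelch or BTB adaptor genes 59 rose and 15 fell (median 0.42). Of 52 F-box genes 22 rose and 5 fell, and of 29 Kelch genes 11 rose and 3 fell. The SOCS-box gene asb8 had 53.5 RPM at 53 mGy/h and 7.91 RPM in the control, btbd9 had 39.1 RPM at 53 mGy/h and 7.21 RPM in the control, and FBXO33 had 96.1 RPM at 53 mGy/h and 19.9 RPM in the control. The 2 largest falls were asb11, a SOCS-box gene tied to Notch signalling in zebrafish, with 47.9 RPM at 53 mGy/h and 314 RPM in the control, and fbxo5, for an inhibitor of the anaphase-promoting complex, with 36.1 RPM at 53 mGy/h and 127 RPM in the control. Of 74 deubiquitinase genes 29 rose and 8 fell, and of 39 USP genes among them 15 rose and 1 fell. The USP gene usp20 had 27.2 RPM at 53 mGy/h and 4.81 RPM in the control, and the one that fell, usp54a, had 6.96 RPM at 53 mGy/h and 17.4 RPM in the control. Of 144 RING genes 40 rose and 20 fell, among them mdm4, a negative regulator of p53, with 78.1 RPM at 53 mGy/h and 10.3 RPM in the control.

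Genes of endosomes and of membrane phosphoinositides had more rises than falls. Of 77 phosphoinositide kinase, phosphatase and phospholipase genes 31 rose and 3 fell (median 0.50), and 30 of the rises lay beyond the 1.5-fold limit. Of 13 PI3-kinase subunit genes 9 rose and none fell, including the catalytic genes pik3cg (6.55 RPM at 53 mGy/h and 1.71 RPM in the control) and pik3cd (24.5 RPM at 53 mGy/h and 6.77 RPM in the control) and the class II gene pik3c2b (85.0 RPM at 53 mGy/h and 29.9 RPM in the control). Of 14 myotubularin genes, a family of phosphatases of endosomal phosphoinositides and of related proteins without catalytic activity, 9 rose and none fell, with mtmr3 at 24.3 RPM at 53 mGy/h and 7.38 RPM in the control. The phospholipase C gene plcb3 had 33.9 RPM at 53 mGy/h and 9.10 RPM in the control, and plcd1a had 1.84 RPM at 53 mGy/h and 10.7 RPM in the control.

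Of 147 endosomal sorting genes 58 rose and 17 fell (median 0.38). The Arf GTPase-activating gene asap3 had 46.3 RPM at 53 mGy/h and 5.85 RPM in the control, whereas the endocytic adaptor gene epn2 had 22.5 RPM at 53 mGy/h and 54.4 RPM in the control. Of 116 Rab genes and their regulators 38 rose and 11 fell. The recycling adaptor gene rab11fip5a had 18.4 RPM at 53 mGy/h and 3.24 RPM in the control, and rin2, for a Rab5 exchange factor, had 0.59 RPM at 53 mGy/h and 5.56 RPM in the control. Of 55 SNARE, exocyst and synaptotagmin genes 13 rose (23.6%) and 3 fell (5.45%). Their share of rises was close to the 22.1% over all genes, and their share of falls was below the 21.5%. Among them nsfb had 32.9 RPM at 53 mGy/h and 8.0 RPM in the control. Rises were less frequent in the early secretory pathway: of 72 COPI, COPII and translocon genes 6 rose (8.33%) and 11 fell (15.3%). With the 1.5-fold limit 6 rose and 4 fell. Of 48 autophagy genes 14 rose and 7 fell, with the lysosomal transcription factor gene tfe3a at 10.3 RPM at 53 mGy/h and 2.68 RPM in the control and map1lc3b, for an LC3 protein of the autophagosome membrane, at 39.4 RPM at 53 mGy/h and 82.0 RPM in the control. Of 52 lysosomal genes 12 rose and 14 fell, and with the limit 9 rose and 7 fell. In the V-ATPase, the pump that acidifies these compartments, 4 of 22 genes rose and 7 fell, with the membrane subunit gene atp6v0a2b at 84.1 RPM at 53 mGy/h and 29.9 RPM in the control and the accessory gene atp6ap1b at 1.85 RPM at 53 mGy/h and 6.0 RPM in the control.

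Genes of the insulin pathway, receptors among them, leaned to rises. Of 89 insulin, IGF, PI3K and TOR genes 38 rose and 8 fell (median 0.55). Of 7 insulin and IGF receptor and receptor substrate genes 5 rose and none fell. The receptor gene insra had 44.4 RPM at 53 mGy/h and 9.59 RPM in the control, insrb had 61.0 RPM at 53 mGy/h and 19.7 RPM in the control, and the substrate gene irs4a had 15.5 RPM at 53 mGy/h and 1.78 RPM in the control. Of 6 AMPK subunit genes, whose kinase senses low energy and restrains TOR, 4 rose and none fell, with the catalytic gene prkaa1 at 99.0 RPM at 53 mGy/h and 31.1 RPM in the control. The leucine sensor sestrin genes went opposite ways, with sesn1 at 39.7 RPM at 53 mGy/h and 13.7 RPM in the control and sesn2 at 3.93 RPM at 53 mGy/h and 6.34 RPM in the control. The TOR-inhibitor gene tsc1b had 88.6 RPM at 53 mGy/h and 47.3 RPM in the control, and rhebl1, for a GTPase that activates TOR, had 22.4 RPM at 53 mGy/h and 39.2 RPM in the control. Both activators and restraints of the pathway were therefore among the rises.

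In the MAP kinase list 40 of 98 genes rose and 17 fell (median 0.41). Of 17 MAP3K and MAP4K genes at the top of the cascade 10 rose and none fell, with map3k2 at 7.35 RPM at 53 mGy/h and 1.40 RPM in the control and map4k5 at 121 RPM at 53 mGy/h and 33.6 RPM in the control. Of 8 MAP2K genes 1 rose and 1 fell, and of 12 MAPK genes 5 rose and 3 fell, with the ERK gene mapk3 at 40.4 RPM at 53 mGy/h and 61.4 RPM in the control. Of 6 Sprouty and Spred genes, which are feedback inhibitors induced by FGF signalling, 4 fell and none rose. They included spred2a with 1.26 RPM at 53 mGy/h and 9.81 RPM in the control and spry2 with 3.79 RPM at 53 mGy/h and 11.4 RPM in the control. The FGF receptor gene fgfr4 had 12.4 RPM at 53 mGy/h and 70.5 RPM in the control.

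Most other signalling lists were near the background or mixed, and other protein kinase genes had a share of rises above it. Of 75 JAK-STAT, cytokine and interferon genes 20 rose and 12 fell. Both the transcription factor gene stat1a, with 12.2 RPM at 53 mGy/h and 1.00 RPM in the control, and the kinase gene tyk2, with 7.11 RPM at 53 mGy/h and 0.88 RPM in the control, were among the rises. Of 61 NF-kappa B, Toll and TNF genes 19 rose and 17 fell, with traf3 at 9.25 RPM at 53 mGy/h and 1.69 RPM in the control and the inhibitor gene nfkbiaa at 1.59 RPM at 53 mGy/h and 7.07 RPM in the control, whose locus overlaps psma6b. Of 23 Hedgehog genes 4 rose and 7 fell, with smo, for the transducer of the signal, at 4.64 RPM at 53 mGy/h and 17.5 RPM in the control. Of 28 Hippo genes 7 rose and 4 fell, with vgll4l, for a TEAD cofactor, at 13.7 RPM at 53 mGy/h and 118 RPM in the control. Of 136 G protein-coupled receptor, G protein and RGS genes 31 rose and 25 fell, with the lysophosphatidic acid receptor gene lpar3 at 1.72 RPM at 53 mGy/h and 18.4 RPM in the control. Of 154 other protein kinase genes 51 rose (33.1%, against 22.1% over all genes) and 34 fell (22.1%, against 21.5%). The Pim kinase genes pim1 and pim2 fell together, with pim2 at 3.33 RPM at 53 mGy/h and 22.96 RPM in the control.

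Genes that shorten, silence or remodel mRNA in the cytoplasm had more rises than falls. Of 106 deadenylation, decapping and small RNA genes 38 rose and 8 fell (median 0.24), and 30 rises and 6 falls lay beyond the 1.5-fold limit. Of 14 microRNA pathway genes 9 rose and none fell, including the Argonaute gene ago1 with 43.8 RPM at 53 mGy/h and 7.81 RPM in the control and dicer1, for the enzyme that cuts microRNA precursors, with 89.2 RPM at 53 mGy/h and 42.6 RPM in the control. Of 13 CCR4-NOT deadenylase genes 6 rose and 1 fell, with cnot7 at 14.3 RPM at 53 mGy/h and 2.38 RPM in the control, and of 7 Btg and Tob genes, whose products recruit that complex, 5 rose, with tob2 at 48.0 RPM at 53 mGy/h and 17.4 RPM in the control. The polyadenylation regulator gene cpeb1b, known in oocytes (chromosome 7, 47967931 to 47978459, GRCz10), had 88.8 RPM at 53 mGy/h and 13.5 RPM in the control, and the decapping activator gene lsm1 had 19.1 RPM at 53 mGy/h and 2.75 RPM in the control. The gene igf2bp1, whose product stabilises mRNA, was among the falls, at 76.8 RPM at 53 mGy/h and 132 RPM in the control. Of 91 RNA modification genes 24 rose and 10 fell. The m6A reader gene ythdf3 had 64.0 RPM at 53 mGy/h and 16.4 RPM in the control, but its locus overlaps pdha1b.

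Circadian clock genes had more rises than falls, with most of the activating arm among the rises. Of 26 clock genes 13 rose and 5 fell (median 0.58). Of 7 genes for Clock, Bmal and ROR proteins, which activate transcription in the loop, 6 rose and none fell. The gene clockb had 35.3 RPM at 53 mGy/h and 7.13 RPM in the control, and arntl2 had 78.9 RPM at 53 mGy/h and 23.9 RPM in the control. Outside this arm the bZIP genes dbpb and tefa differed in direction. The output factor gene dbpb had 11.5 RPM at 53 mGy/h and 2.65 RPM in the control, whereas tefa was called lower, with a deposited signed fold change of -2.29. Repressors split, with the period gene per1b at 13.2 RPM at 53 mGy/h and 29.8 RPM in the control, and the cryptochrome genes cry2a at 57.1 RPM at 53 mGy/h and 86.1 RPM in the control and cry2b at 48.6 RPM at 53 mGy/h and 16.01 RPM in the control. The locus of cry2b overlaps btg2, which also rose.

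Homeobox and nuclear receptor genes had more rises than falls, and other transcription factor families were mixed. Of 63 homeobox genes outside the lineage lists 22 rose and 8 fell (median 0.58), with cux1a at 19.2 RPM at 53 mGy/h and 2.03 RPM in the control. Among the falls gbx1 had 1.85 RPM at 53 mGy/h and 9.34 RPM in the control. The summed level of the list was 1571 RPM at 53 mGy/h and 1799 RPM in the control, so the count and the sum went opposite ways. With a mean of at least 10 RPM its rises outnumbered falls by 3. Of 60 nuclear receptor and coregulator genes 23 rose and 7 fell, with the glucocorticoid receptor gene nr3c1 at 15.3 RPM at 53 mGy/h and 2.57 RPM in the control and nr0b2a, for a receptor that represses others, at 1.54 RPM at 53 mGy/h and 9.47 RPM in the control. Of 82 Sox, Fox, Klf, Gata and Ets genes 27 rose and 32 fell, so that 23 were not called. Of 28 immediate early genes, known for rapid induction, 8 rose and 10 fell. Among these klf2a had 12.6 RPM at 53 mGy/h and 43.3 RPM in the control and klf2b had 4.75 RPM at 53 mGy/h and 25.7 RPM in the control, whereas fosab had 11.6 RPM at 53 mGy/h and 3.32 RPM in the control. Of 50 bZIP and stress factor genes 14 rose and 11 fell, with atf5a, for a factor of the mitochondrial stress response, at 24.3 RPM at 53 mGy/h and 2.64 RPM in the control and cebpb at 24.2 RPM at 53 mGy/h and 121 RPM in the control. Of 214 zinc finger genes 70 rose and 53 fell, with zbtb1 at 20.7 RPM at 53 mGy/h and 1.50 RPM in the control.

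Fatty acid oxidation and sphingolipid genes had more rises than falls. Fatty acid synthesis genes had few rises, with falls not far above the share over all genes. Cholesterol genes were near the shares over all genes. Of 46 fatty acid oxidation and peroxisome genes 16 rose and 7 fell, and 14 rises and 4 falls lay beyond the 1.5-fold limit. The beta-oxidation gene hadhab had 69.9 RPM at 53 mGy/h and 13.3 RPM in the control, cpt2, for the inner membrane carnitine enzyme, had 16.1 RPM at 53 mGy/h and 3.89 RPM in the control, and its outer membrane counterpart gene cpt1aa had 3.05 RPM at 53 mGy/h and 5.14 RPM in the control. The peroxisomal transporter gene abcd3a (chromosome 24, 31373429 to 31394876, GRCz10) had 44.1 RPM at 53 mGy/h and 4.55 RPM in the control. Of 34 fatty acid synthesis genes 3 rose (8.82%) and 9 fell (26.5%, against 21.5% over all genes), with a median of 0.04. Among the falls elovl6l had 29.7 RPM at 53 mGy/h and 88.0 RPM in the control. Of 33 sphingolipid genes 14 rose and 4 fell, and of 5 sphingomyelinase genes 4 rose. The kinase gene sphk2 had 42.4 RPM at 53 mGy/h and 10.3 RPM in the control, and the ceramide desaturase gene degs1 had 1.41 RPM at 53 mGy/h and 8.44 RPM in the control. Of 27 cholesterol genes 6 rose and 5 fell, with the synthase gene hmgcs1 at 124 RPM at 53 mGy/h and 33.3 RPM in the control and the demethylase gene cyp51 at 1.24 RPM at 53 mGy/h and 5.81 RPM in the control.

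Of 29 iron and haem genes 11 rose and 2 fell. The transferrin receptor gene tfr1b had 21.1 RPM at 53 mGy/h and 4.50 RPM in the control, and the mitochondrial iron importer gene slc25a28 had 63.9 RPM at 53 mGy/h and 23.6 RPM in the control. The falls were the haem synthesis genes cpox (7.04 RPM at 53 mGy/h and 10.9 RPM in the control) and uros (23.1 RPM at 53 mGy/h and 31.1 RPM in the control). Few antioxidant genes were called: of 67 glutathione, thioredoxin and selenoprotein genes 7 rose and 5 fell and 55 were not called, with the superoxide dismutase gene sod1 at 51.2 RPM at 53 mGy/h and 18.9 RPM in the control. Glycolysis genes had 6 rises and 4 falls among 26, with tpi1a at 39.3 RPM at 53 mGy/h and 9.83 RPM in the control. Of 52 genes of folate, purine and pyrimidine metabolism 10 rose and 6 fell, with the methionine synthase gene MTR at 58.2 RPM at 53 mGy/h and 7.91 RPM in the control. The plasma membrane solute carriers had 38 rises and 39 falls among 187. Ion pumps of the P-type differed by member, with the calcium pump gene atp2a2a at 114 RPM at 53 mGy/h and 18.5 RPM in the control and the sodium pump beta subunit gene atp1b1a at 7.98 RPM at 53 mGy/h and 53.8 RPM in the control.

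Junction genes had more falls than rises, and kinesin and centrosome genes had more rises. Of 47 tight junction and gap junction genes 17 fell and 8 rose, and of 16 claudin genes, which seal epithelial contacts, 9 fell and none rose (median -0.80). The claudin gene cldnf had 1.40 RPM at 53 mGy/h and 9.60 RPM in the control, and cldnb had 7.37 RPM at 53 mGy/h and 19.6 RPM in the control. The connexin gene cx43.4 had 371 RPM at 53 mGy/h and 766 RPM in the control. Of 35 cadherin genes 8 fell and 4 rose, with pcdh1b at 18.5 RPM at 53 mGy/h and 103 RPM in the control and the epithelial cadherin gene cdh1 at 142 RPM at 53 mGy/h and 202 RPM in the control. In the matrix list 12 of 77 genes rose and 16 fell, with has2, for the enzyme that makes hyaluronan, at 10.1 RPM at 53 mGy/h and 78.7 RPM in the control. Falls among cadherin (22.9%) and matrix (20.8%) genes were close to the 21.5% over all genes. In the same embryos 19 of 21 germ ring and ectoderm markers, epithelial keratins among them, were lower, and the part of that difference in these falls was not tested.

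Of 39 kinesin genes 14 rose and 5 fell (median 0.40). The mitotic motor gene kif11 had 20.7 RPM at 53 mGy/h and 59.99 RPM in the control, while kif14, which acts in cytokinesis, had 66.3 RPM at 53 mGy/h and 20.5 RPM in the control. Of 92 centrosome and cilia genes 26 rose and 9 fell, with the microtubule nucleation gene tubgcp2 at 24.4 RPM at 53 mGy/h and 6.86 RPM in the control and the centriole duplication kinase gene plk4 at 5.54 RPM at 53 mGy/h and 16.04 RPM in the control. Dynein and dynactin genes had 8 rises (24.2%) and 5 falls among 33, and myosin genes had 6 rises (18.8%) and 3 falls among 32, close to or below the 22.1% of all genes called higher. Actin genes had 17 rises and 11 falls among 85, and glycosylation and GPI anchor genes had 35 rises and 12 falls among 138.

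Paralog pairs named with the same stem and the endings a and b were called in the same direction more often than in opposite ones. Of 800 pairs with both members listed, both rose in 68, both fell in 48 and the members were called in opposite directions in 53. Only 1 member was called in 372 pairs and none in 259. Over all genes 22.1% were called higher and 21.5% lower. The counts of pairs that these shares alone would give were not computed. The SoxB1 pair changed over, with sox19b at 522 RPM at 53 mGy/h and 70.1 RPM in the control and sox19a at 31.8 RPM at 53 mGy/h and 179.9 RPM in the control. The chemokine pair did so with little change in sum: cxcl12b had 11.6 RPM at 53 mGy/h and 1.98 RPM in the control, cxcl12a had 1.23 RPM at 53 mGy/h and 8.86 RPM in the control, and together they had 12.8 RPM at 53 mGy/h and 10.8 RPM in the control. In the bromodomain pair brd2b had 43.6 RPM at 53 mGy/h and 13.3 RPM in the control and brd2a had 101 RPM at 53 mGy/h and 327 RPM in the control with a sum of 144 RPM at 53 mGy/h and 340.5 RPM in the control. The pair of the FGF adaptor gene frs2 had frs2b at 54.3 RPM at 53 mGy/h and 29.52 RPM in the control and frs2a at 0.91 RPM at 53 mGy/h and 5.93 RPM in the control, where frs2a overlaps kcnc2. In the pair that encodes a bifunctional glycolysis enzyme, pfkfb4a had 19.1 RPM at 53 mGy/h and 3.52 RPM in the control and pfkfb4b had 31.8 RPM at 53 mGy/h and 79.5 RPM in the control. Of the 53 opposite pairs, those described here are the 8 furthest apart among pairs with both members at 5 RPM or more in their higher group, and the remaining ones were otx1b against otx1a, b3gnt5b against b3gnt5a and itpk1b against itpk1a, each with the b member higher. Reads of similar paralogs may have been assigned to the wrong member, which the files do not allow to be checked.

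**Figure D5:**
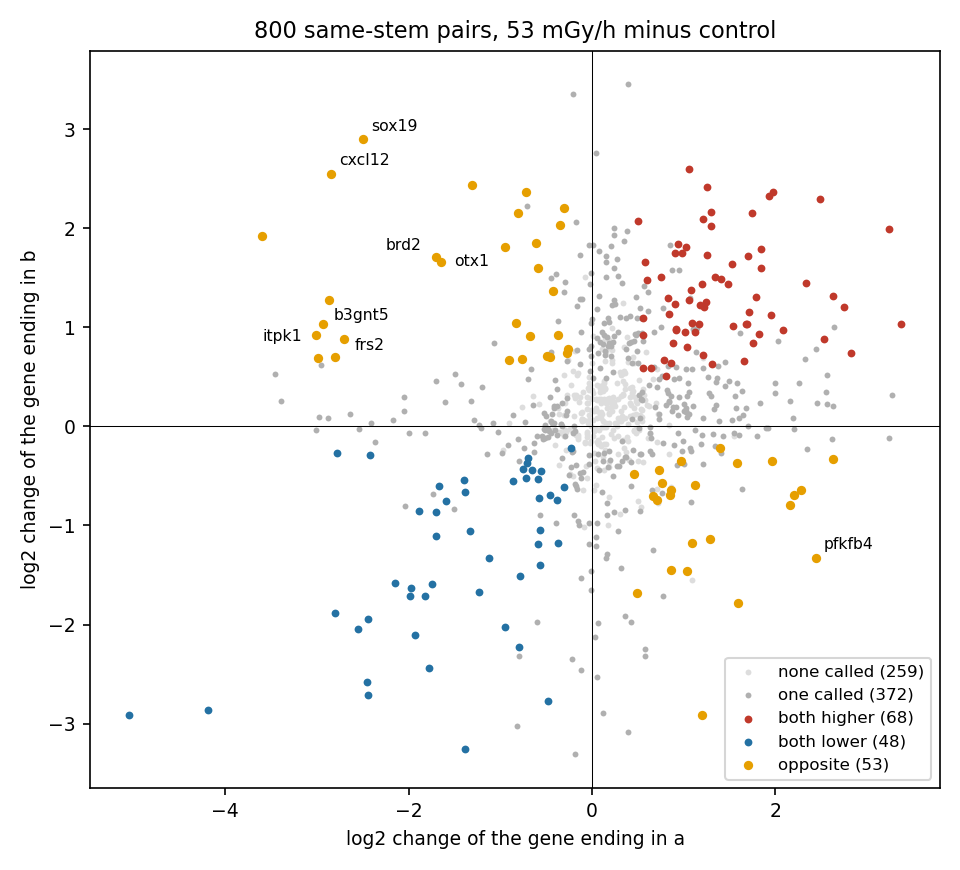
Log2 change of the b member against that of the a member in same-stem pairs, 53 mGy/h minus control, with pairs called in opposite directions coloured. The 53 opposite pairs lie in the upper left and lower right corners, and sox19, cxcl12 and brd2 are in the corner where the b member rose.

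Values of the same genes in the other deposited comparisons are given side by side. They cover the 365 genes picked by the rule for named genes (180 higher and 185 lower at 53 mGy/h), chosen for the size of their change. In the 8.7 mGy/h brood of the same age, which shares the control libraries, none of the 179 listed higher genes and none of the 185 lower genes was called, where 0.151% of all genes were called higher and 0.143% lower. In the 8.7 mGy/h brood of 1 year, which has its own control, 1 of the 177 listed higher genes was called higher and 140 (79.1%) were called lower. Of the 185 lower genes 66.5% were called higher there and 2 genes lower, where 20% of all genes were called higher and 22.4% lower. Splicing genes had 67 rises and 5 falls among 118 in the 1-year brood, ribosome biogenesis genes 58 and 3 among 104, and phosphoinositide genes 1 and 29 among 70. Clock genes had 1 rise and 11 falls among 22. The median log2 changes there were 0.11 for splicing, 0.13 for ribosome biogenesis, -0.38 for phosphoinositide and -0.47 for clock genes. Small rises could carry a call in that brood, as ddx5 was called higher at 0.13. Its calls were not placed evenly around 0 either: gsc at -0.09 had a deposited FDR of 0.99, and cxcr4a at 0.11 was called higher. The differences between these comparisons were not tested, as the tables hold no standard errors.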

How the data were processed

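Embryo mRNA was sequenced from poly(A)-selected, non-directional libraries, per the labels' protocols, so overlapping genes on opposite strands cannot be separated. The submitters' processing notes list the genome build GRCz10 and the tools DESeq2, STAR 2.5.2b, Trim Galore 0.4.2 and FastQC 0.11.5 with no roles. Per the file headers, the authors gave each group's expression as log2 and as RPM, a read count scaled to library size, with 1 value per group. The deposited table also holds a ratio of the groups, a signed fold change (a score) and, per the file headers, the FDR, a p-value adjusted by the authors. The planned tests on single libraries could not be run.

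Calls used the deposited FDR under 0.05. Counts, medians and lengths (end minus start) came from pandas 2.3.3 and numpy 2.4.6 in Python 3.11.15, and figures from matplotlib 3.10.9. Depth was recovered from the 150 lowest values of at least 0.4 RPM, of which 100% gave whole reads within a tolerance of 0.04. List counting and depth recovery were tested on simulated data. The gene lists were written with earlier results of these data known, and entries that a name pattern had caught wrongly were removed by name. In each list up to 2 called rises and 2 called falls with the largest log2 change were named, at 5 RPM or more in the higher group. The 10 largest gains and losses in RPM and the 8 opposite pairs furthest apart, with both members at 5 RPM or more in their higher group, were also named. Other named genes were chosen after their values were seen. The alternatives were an FDR of 0.01, centring on the median change, minimum means of 1 and 10 RPM, a pseudocount of 1 RPM, unambiguous symbols alone and a wider definition of pairs. Leaving out chromosome 4 and asking for 1.5-fold were added after the data were seen. No sequence was used. Some results are not reported here.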

Additional observations from a re-analysis of the deposited data

How the results depend on the processing

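Centring on the median of genes of at least 10 RPM could not turn a call, since 0 called genes had a change between 0 and that median. The alternatives reused the same group values, so the direction of the 365 named genes could not change and was not checked by them. At an FDR of 0.01, 8 of these genes were not called. With genes of at least 10 RPM mean, 1776 were called higher and 1344 lower, 880 and 373 of them at least 2-fold, and 23 pairs were opposite. With calls at least 1.5-fold from the median change, 34 pairs were opposite. The other total counts of genes, of lists with more rises or more falls and of opposite pairs stayed within 1.5 times their value under the alternatives. The balance of single lists, called rises minus falls, was less stable. Without a change of sign it moved by over 1.5 times in 22 of 87 lists at an FDR of 0.01, 25 with the 1.5-fold limit, 38 with at least 10 RPM, 8 with at least 1 RPM, 7 with unambiguous symbols alone and 3 without chromosome 4. Among the larger balances, splicing became -20 and ribosome biogenesis -25 with the 1.5-fold limit, and histones -18, respiratory chain -8, mitochondrial ribosome -3, phosphoinositides 18, cullin and F-box adaptors 22, MAP kinases 14 and clock genes 3 with at least 10 RPM. Clone-named genes, at -505 over all genes, had -290 with at least 1 RPM, -190 without chromosome 4 and 3 with at least 10 RPM. Other lists turned over. At an FDR of 0.01 chaperonin genes had 3 and chromatin remodellers 4. With at least 1 RPM, and without chromosome 4, solute carriers had 2. With at least 10 RPM, solute carriers had 12, V-ATPase 1, ion channels -2, spectrins 1, chaperonin 2, bZIP -3 and cytochrome P450 3. With the 1.5-fold limit COPI and COPII had 2, lysosomal genes 2, chaperonin 2, chromatin remodellers 4 and cohesin and condensin 2. For these the cause was not tested. No paired analysis was possible because the tables hold 1 value per group. For the same reason leaving out single libraries was not run, and a protein identity filter on pairs was not run for want of a protein table. Depth limits genes near 0.11 RPM, and the depth of single libraries is unknown.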
